A study of Homo sapiens with 4 samples.

Results

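Interleukin-6-family signalling was followed through 9 genes of MCF10A, an untransformed line of human mammary epithelial cells: the cytokines LIF, IL6, IL11 and IL24, the receptor chains IL6ST, LIFR and OSMR, the transcription factor STAT3 and its inhibitor SOCS3. They are 9 of the 19577 genes with a row in the transcript tables. The 9 were selected by name with earlier results of the same plates in view, both the contrast between phototagging schemes and the relation to the epithelial-to-mesenchymal transition (EMT), so their values in both are a description. The number of them past the threshold of the fit over all genes is given once, for completeness, and nothing is read from it. Each gene had 1 row.

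The study compared 4 plates of 384 wells, 2 low-resolution and 2 high-resolution. All came from the MCF10A_H2B_GFP line, whose cells had grown as a circular patch for 6 days on 0.1 mg/ml fibronectin, seeded at 10000 cells, in medium with 5% Donor Equine Serum, insulin at 10 µg/ml, cholera toxin at 100 ng/ml, EGF at 20 ng/ml and hydrocortisone at 500 ng/ml. For the low-resolution plates the patch was divided into 3 concentric rings 1000 to 1500 µm wide, and for the high-resolution plates into the outermost 250 µm, the next 250 µm and the inside. In both schemes the outer and then the middle population was phototagged, which means marked with light-activated dyes, and the inner one was left unmarked. Live cells were sorted into the wells, 1 per well. Which band a well came from was not analysed here, so the contrast is between whole plates, and scheme, band mix and patch cannot be told apart. The plates are the replicates, and all cells belong to 1 line.

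Transcripts were counted as unique molecular identifiers (UMIs), tags that let each captured mRNA be counted once at its 3′ end, so a level here is a number of molecules and not a number per length. Between 271 and 293 wells per plate, 1146 of 1536 in all, passed the filter of 2000 to 9000 detected features and under 40% mitochondrial transcripts. This is fewer cells than the study describes after the same filter. Cells of the high-resolution plates were read more deeply, with medians of 35742 and 41248 transcripts per cell against 30520 and 33757 on the low-resolution plates, so shares of cells are also given after each cell was thinned to 10000 UMIs. The epithelial identity held, with KRT5 in 99.6% to 100.0% of cells, whereas the fibroblast gene COL1A2 had 1 to 3 UMIs per plate and the leukocyte gene PTPRC 1 to 5. Other genes of these marker lists were present on every plate, with 61 to 120 UMIs of COL1A1, 70 to 96 of CD68 and 242 to 488 of CD14. TP63, a defining basal marker, was seen in 2.58% to 4.12% of cells. Among 7 basal epithelial markers fitted, KRT17, KRT6A and ITGA6 were higher on the high-resolution plates (edgeR adjusted p = 0.0108, 0.00299 and 0.00859). Among fitted marker genes of other cell types, CD14 and KDR were lower there (edgeR adjusted p = 0.007 and 0.0431). PECAM1 was higher (edgeR adjusted p = 0.0447), and COL1A1 and CD68 were not called. Over all genes tested, 6.26% were called higher and 6.18% lower. CD3E, CDH5 and VWF had at most 2 UMIs on any plate. DCN, another fibroblast gene, had 1, 4 and 8 UMIs on the first 3 plates and 52 on high-resolution replicate 2, of which 45 were in 1 cell. The part of these marker genes in the results was not tested. Low-resolution replicate 1 had been run on another flow cell than the other 3 plates.

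Cytokines of the interleukin-6 family act on cells through receptor complexes that share the signalling chain gp130, the product of IL6ST. IL6 and IL11 first bind their own receptor chains, LIF joins gp130 to LIFR, and oncostatin M joins gp130 to OSMR. The complexes activate Janus kinases, which phosphorylate STAT3, and STAT3 induces SOCS3, which blocks the receptor in a feedback loop. IL24 belongs to the interleukin-10 family and signals to STAT3 through other receptors. Transcript counts show neither phosphorylation nor secreted protein.

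On the human build hg38 (GENCODE release 29) the ligand genes lie apart: LIF at chr22:30240447-30246851 on the minus strand, IL6 at chr7:22725884-22732002 on the plus strand, IL11 at chr19:55364389-55370463 on the minus strand and IL24 at chr1:206897443-206904139 on the plus strand. All 3 receptor genes are on chromosome 5, with LIFR at chr5:38474963-38608354 (minus), OSMR at chr5:38845858-38945596 (plus) and IL6ST at chr5:55935095-55994993 (minus). STAT3 at chr17:42313324-42388568 and SOCS3 at chr17:78356778-78360077 are both on the minus strand of chromosome 17. All 9 are protein-coding. OSMR overlaps RICTOR on the opposite strand, which had 818 UMIs in the kept cells, and LIFR overlaps LIFR-AS1, which had 19, and the strand setting of the counting is not given in the sources used here.

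RefSeq promoter windows (GRCh38.p14) were matched for 8 of the 9 genes. Those of 3 ligand genes and of the shared receptor chain IL6ST are printed because they set the rare ligands beside the chain that most cells carried. Each line gives the 250 bases before the RefSeq start, 5′ to 3′ on the gene's strand, with matches to the searched motifs in capitals. That start can differ from the gene start given above.
IL6: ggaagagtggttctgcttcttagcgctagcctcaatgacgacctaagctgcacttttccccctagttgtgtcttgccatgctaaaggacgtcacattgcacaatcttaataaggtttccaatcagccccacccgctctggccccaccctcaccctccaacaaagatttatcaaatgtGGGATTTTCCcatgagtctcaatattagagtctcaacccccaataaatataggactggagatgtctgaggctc
IL24: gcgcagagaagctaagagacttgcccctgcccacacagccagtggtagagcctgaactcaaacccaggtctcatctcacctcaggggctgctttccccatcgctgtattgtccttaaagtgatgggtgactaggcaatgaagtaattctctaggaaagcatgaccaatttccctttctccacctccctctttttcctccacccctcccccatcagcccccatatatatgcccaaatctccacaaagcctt
IL11: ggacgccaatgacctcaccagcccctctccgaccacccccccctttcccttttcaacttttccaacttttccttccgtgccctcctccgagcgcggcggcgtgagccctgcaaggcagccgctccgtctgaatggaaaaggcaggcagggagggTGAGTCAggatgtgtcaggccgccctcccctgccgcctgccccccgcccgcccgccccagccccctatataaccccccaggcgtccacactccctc
IL6ST: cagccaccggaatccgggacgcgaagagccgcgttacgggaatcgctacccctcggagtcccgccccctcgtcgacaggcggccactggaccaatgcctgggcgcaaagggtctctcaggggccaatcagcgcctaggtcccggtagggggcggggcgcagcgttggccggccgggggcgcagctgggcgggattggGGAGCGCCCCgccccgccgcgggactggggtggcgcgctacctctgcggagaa
These windows are chr7:22726950-22727199 for IL6, chr1:206897193-206897442 for IL24, chr19:55370464-55370713 for IL11 and chr5:55994964-55995213 for IL6ST. The 5 motifs searched on both strands were AP-1 (TGA and TCA with any 1 base between them), the cyclic AMP response element CRE (TGACGTCA), the NF-kB consensus, STAT (TTCNNNGAA) and the TATA box (TATAAA). In IL6 the capitals mark an NF-kB match 73 to 64 bases before the start, and in IL6ST one on the opposite strand at 53 to 44. In IL11 they mark an AP-1 match at 96 to 90. IL24 held none of the 5. In the other 4 genes, LIFR held a STAT match in 2 of its 3 windows and TATA matches in 1. The windows of OSMR, STAT3 and SOCS3 held none. The SOCS3 windows, chr17:78360926-78361175 and chr17:78359668-78359917, did not cover the bases just before the gene start given above, so those bases were not searched. The IL6 window and the 3 LIFR windows lay inside the gene spans given above. The bases just before those gene starts were not searched either. Over all 35116 windows of this length an NF-kB match occurred in 9.96%, AP-1 in 6.57%, STAT in 6.57%, CRE in 1.65% and TATA in 10.7%. The IL6ST window had a GC content of 73.6% against 47.6% in IL6 and a median of 58.0% over all windows. A match is a string of letters, not a bound site.

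LIF, a cytokine known for holding stem cells undifferentiated, was the one of the 4 ligands found in the most cells on every plate. Its level was several-fold higher on the high-resolution plates. A LIF UMI was found in 70 of 291 and 85 of 271 cells on the low-resolution plates, which is 24.1% (95% exact binomial interval 19.3% to 29.4%) and 31.4% (25.9% to 37.3%). It was found in 195 of 291 and 209 of 293 cells on the high-resolution plates, which is 67.0% (61.3% to 72.4%) and 71.3% (65.8% to 76.4%). The groups did not overlap. With 2 plates against 2 that is common and by itself says little. Of the 12437 genes fitted, 3525 had both high-resolution plates above both low-resolution plates in level, and 3606 had both below. After thinning to 10000 UMIs the LIF shares were 13.2%, 16.4%, 43.0% and 44.7% in the same order of plates, so the gap remained at equal depth. The level was 0.237 and 0.275 transcripts per 10000 on the low-resolution plates and 1.06 and 1.03 on the high-resolution plates, or 0.256 ± 0.0269 against 1.05 ± 0.0274 (SD, n = 2 plates each). The fitted log2 difference, high minus low, was 2.06 with a standard error of 0.13.

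More cells carried LIF on the high-resolution plates, and those cells also carried more of it. The median among cells with LIF was 2.0 UMIs on both low-resolution plates and 4.0 on both high-resolution plates. Cells with 10 or more LIF UMIs numbered 6 and 6 on the low-resolution plates against 41 and 41 on the high-resolution plates, and the most in any cell was 15, 20, 42 and 72. LIF was unevenly spread on every plate. The tenth of cells with the most LIF held 78.2% and 68.6% of its UMIs on the low-resolution plates and 45.5% and 47.7% on the high-resolution plates.

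**Figure D1:**
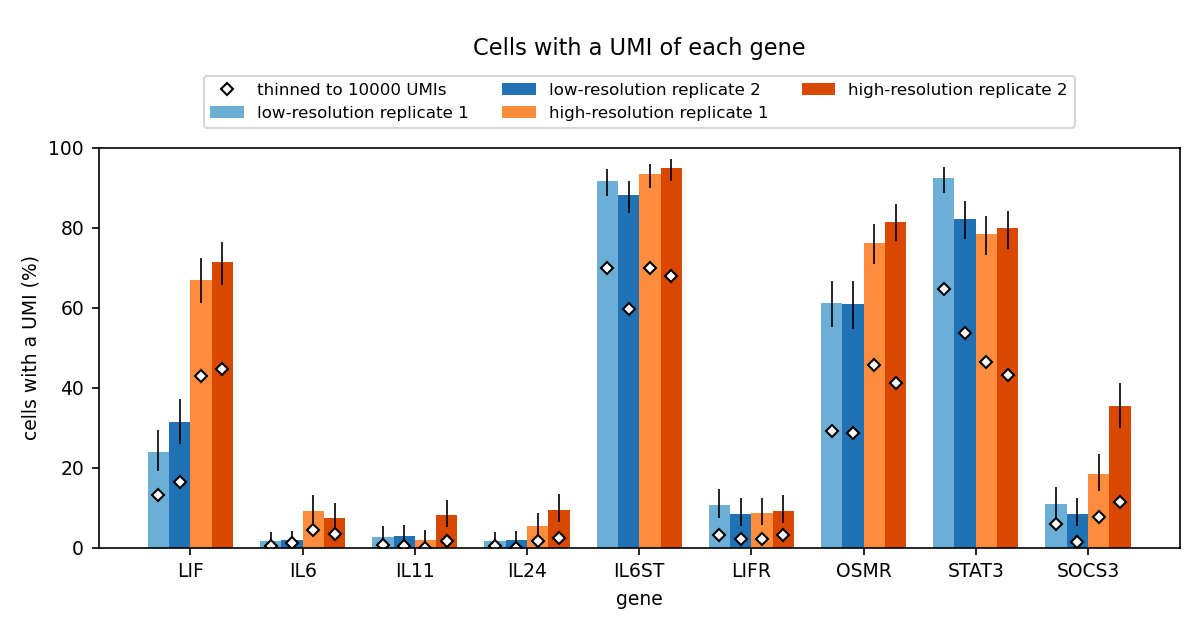
Share of cells with at least 1 UMI of each of the 9 genes (y axis, % of kept cells) on the 4 plates. Bars are full depth with 95% exact binomial intervals (counting error only), and diamonds are the shares after thinning each cell to 10000 UMIs. LIF rises from 24.1% and 31.4% on the low-resolution plates to 67.0% and 71.3% on the high-resolution plates, whereas STAT3 is lower on both high-resolution plates.

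IL6, the family's namesake inflammatory cytokine, and IL24 were rare, and both were found in more cells of the high-resolution plates. IL6 was in 5 of 291 and 5 of 271 low-resolution cells, 1.72% and 1.85%, and in 27 of 291 and 22 of 293 high-resolution cells, 9.28% and 7.51%. Its level was 0.00708 and 0.00595 transcripts per 10000 against 0.0455 and 0.0443, which rests on 7, 6, 52 and 60 UMIs. The IL6 values of the 2 high-resolution plates lay close together and well apart from the low-resolution ones. The fitted log2 difference was 2.80 with a standard error of 0.37.

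IL24 did not behave as evenly. It was in 5 and 5 low-resolution cells, 1.72% and 1.85%, and in 16 and 28 high-resolution cells, 5.50% and 9.56%, with 6, 7, 28 and 95 UMIs. High-resolution replicate 2 alone held 4 cells with 10 or more IL24 UMIs. The log2 difference was 2.90 with a standard error of 0.55, and without high-resolution replicate 2 it was 1.94. All plates of the high-resolution group were above both of the other group for IL6 and IL24, also in thinned cells (IL6 4.58% and 3.44% against 0.348% and 1.12%, and IL24 1.76% and 2.41% against 0.348% and 0 of 268 cells). A count of 0 among 268 cells allows a share of up to 1.12%, and intervals and such limits cover counting error only.

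IL11, a cytokine of stroma and bone, was near the limit of detection and did not separate the groups. It was in 8, 8, 6 and 24 cells with 9, 9, 6 and 31 UMIs, so only high-resolution replicate 2 stood out, at 8.19% of cells against 2.06% to 2.95% on the other 3 plates. It was the only one of the 9 genes under the filter on low counts. IL6 and IL24 passed that filter through the high-resolution plates alone, so some difference in them was a condition of their being fitted.

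IL6ST, the chain that every receptor of the family shares, was found in most cells, and its levels overlapped between schemes. Its share was 91.8%, 88.2%, 93.5% and 94.9% and its level 1.31, 1.12, 1.33 and 1.27 transcripts per 10000. The high-resolution plates differed from the low-resolution ones by less than the low-resolution plates differed from each other, with means of 1.30 ± 0.0399 and 1.22 ± 0.135 (SD, n = 2 each). The log2 difference was 0.14 with a standard error of 0.11.

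Of the other 2 receptor chains, OSMR was higher on the high-resolution plates and LIFR was too sparse to give a direction. OSMR, the oncostatin M receptor chain, was in 61.2% and 60.9% of low-resolution and 76.3% and 81.6% of high-resolution cells, at 0.389 and 0.374 against 0.522 and 0.534 transcripts per 10000. Its log2 difference was 0.50 with a standard error of 0.12, and the groups did not overlap, as was common among all genes fitted. The difference stayed between 0.50 and 0.52 when any 1 plate was left out. LIFR, the chain LIF itself needs, was sparse, in 10.7%, 8.49%, 8.59% and 9.22% of cells with 37, 28, 28 and 31 UMIs. The LIFR shares of the groups overlapped, while its level was 0.0374 and 0.0277 transcripts per 10000 against 0.0245 and 0.0229, and its log2 difference of -0.42 had a standard error of 0.31. High LIF on the high-resolution plates thus stood beside sparse LIFR on all 4.

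STAT3, the transcription factor at the end of the pathway, was lower on both high-resolution plates than on either low-resolution plate. Its level was 0.945 and 0.749 transcripts per 10000 on the low-resolution plates and 0.492 and 0.489 on the high-resolution plates. Thinned cells gave the same order, with STAT3 in 64.8%, 53.7%, 46.5% and 43.3% of cells. The log2 difference was -0.75 with a standard error of 0.13.

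SOCS3, which STAT3 is known to induce, ran the other way. It was in 32 of 291 and 23 of 271 low-resolution cells and in 54 of 291 and 104 of 293 high-resolution cells, the last 2 being 18.6% and 35.5%. The 2 high-resolution plates differed widely from each other, with 103 and 231 UMIs and levels of 0.0901 and 0.171 transcripts per 10000 against 0.0637 and 0.0297. Its log2 difference of 1.53 (standard error 0.34) became 1.01 without high-resolution replicate 2, 1.91 without high-resolution replicate 1, 2.14 without low-resolution replicate 1 and 1.12 without low-resolution replicate 2.

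**Figure D2:**
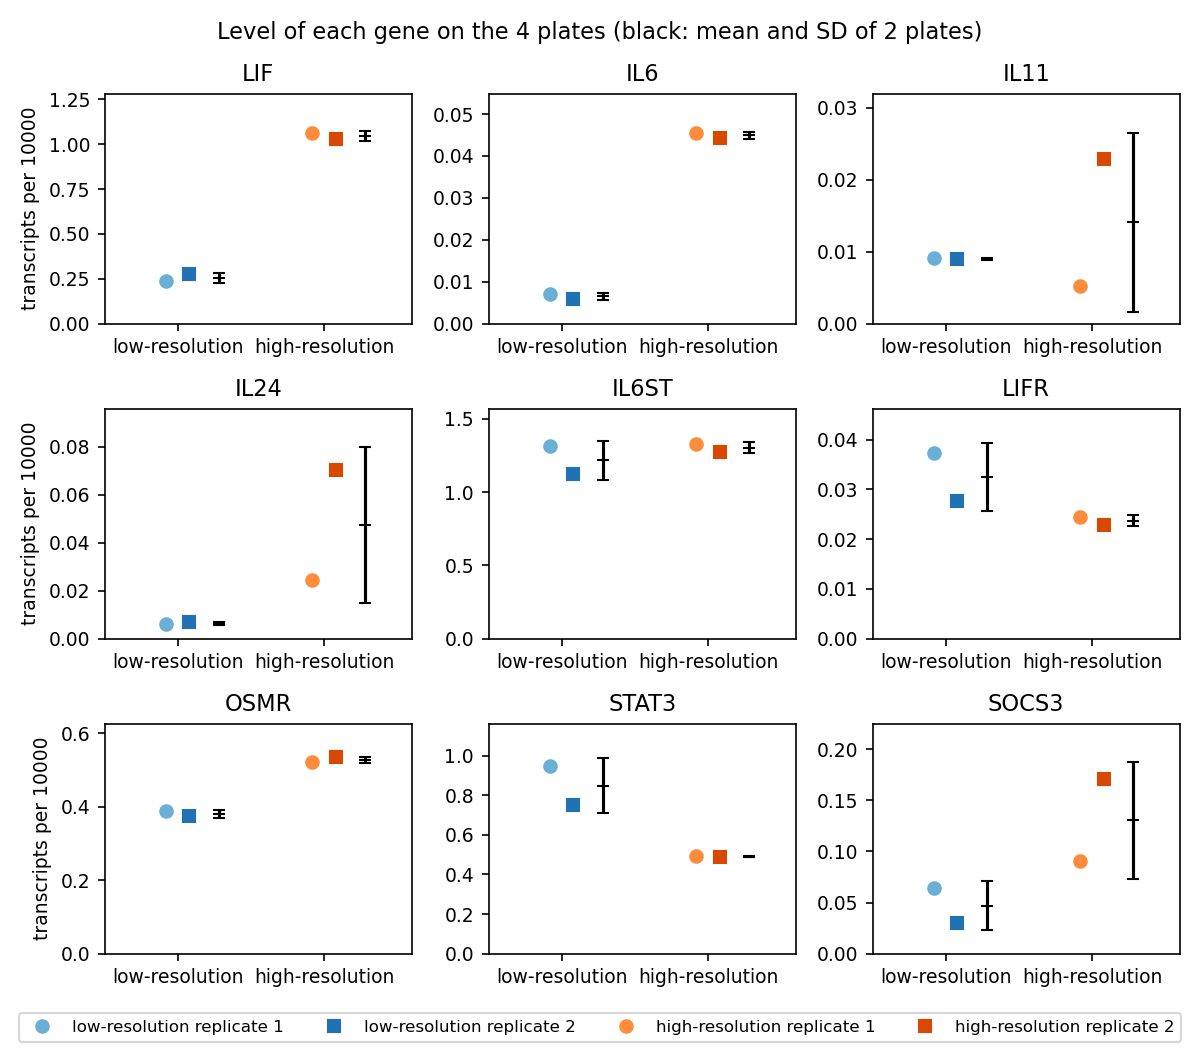
Level of each of the 9 genes (y axis, transcripts per 10000, each panel with its own linear scale from 0) on the low-resolution and high-resolution plates. Points are plates and the black mark is the mean with the SD of 2 plates. LIF, IL6 and OSMR have tight, separated pairs, STAT3 is lower on the high-resolution plates, and the IL24, IL11 and SOCS3 pairs of the high-resolution plates lie far apart.

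In the edgeR fit over all 12437 genes tested, 5 of the 8 genes that could be fitted passed the threshold as higher on the high-resolution plates (LIF, IL6, IL24, OSMR and SOCS3) and 1 as lower (STAT3). Of all genes tested, 6.26% were called higher and 6.18% lower. The 9 were chosen with this contrast known and IL6 and IL24 were fitted through the plates where they are high, so nothing is read from that count. OSMR fell under the threshold without low-resolution replicate 1, high-resolution replicate 1 or high-resolution replicate 2, IL24 without high-resolution replicate 2 and SOCS3 without low-resolution replicate 2. Leaving out low-resolution replicate 1, which leaves plates of 1 flow cell, gave log2 differences of 1.93 for LIF, 2.89 for IL6, 2.78 for IL24, 0.22 for IL6ST, -0.23 for LIFR, 0.50 for OSMR, -0.61 for STAT3 and 2.14 for SOCS3. An exact permutation test of 2 plates against 2 could not give a p below 0.3333 for any single value.

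The plates also differed in EMT state, which moves with several of the 9 genes. VIM and FN1, the mesenchymal markers vimentin and fibronectin, were higher on the high-resolution plates by log2 differences of 0.94 and 0.77 (edgeR adjusted p = 0.00117 and 0.00127), and CDH1, the epithelial cadherin, was lower by -0.68 (adjusted p = 0.00321). EPCAM, another epithelial adhesion gene, had a log2 difference of -0.11 (adjusted p = 0.566). The next comparisons therefore look at the 9 genes along the EMT state of single cells within each plate.

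An EMT score was computed for each cell as the enrichment of mesenchymal genes (100 scored on the low-resolution and 97 on the high-resolution plates) minus that of 64 epithelial genes, none of them among the 9. Across the cells of a plate its Spearman correlation (rho) with each gene was taken, and a gene was said to follow the score when rho had 1 sign and reached 0.3 in size on each plate. Only genes seen in 20% or more of the cells of each plate were judged. These correlations are descriptions: cells of a plate share their library, rare genes have many ties at 0, and depth differs between cells.

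The receptor chains followed the mesenchymal state and LIF did not. IL6ST had rho of 0.63, 0.51, 0.59 and 0.61 with the EMT score, and OSMR 0.36, 0.37, 0.33 and 0.38. Both followed the score upward, as 2.32% of the 7959 genes outside the score did, and 2.41% followed it downward. IL6ST ranked 41 of all genes compared by its mean rho, genes of the score included. In thinned cells the mean rho was 0.40 for IL6ST and 0.26 for OSMR. LIFR, too sparse to be judged by the rule, had rho of 0.22, 0.13, 0.17 and 0.21.

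LIF was close to 0 on 3 of the plates. Its rho was -0.07 and 0.09 on the low-resolution plates and 0.01 and 0.19 on the high-resolution plates. With single markers the mean rho of LIF over the 4 plates was 0.02 for CDH1, 0.03 for EPCAM, 0.09 for VIM and 0.05 for FN1. High-resolution replicate 2 stood apart, with rho of LIF of 0.29 for VIM and 0.17 for FN1. IL6ST, by contrast, had -0.48 with CDH1, -0.52 with EPCAM, 0.34 with VIM and 0.58 with FN1. LIF and its receptor's shared chain were thus arranged differently along the EMT state on the same plates.

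The rare ligands leaned to the mesenchymal side. IL6 had rho of 0.07, 0.21, 0.21 and 0.21 with the EMT score and IL24 0.13, 0.13, 0.23 and 0.16, all of 1 sign, whereas IL11 had 0.00, -0.03, -0.07 and 0.12. STAT3 had negative rho on every plate, -0.06 and -0.15 on the low-resolution and -0.27 and -0.31 on the high-resolution plates, and its mean of -0.20 became -0.10 in thinned cells. SOCS3 had 0.17, 0.13, 0.16 and 0.26. With cell cycle scores regressed out the mean rho changed by less than the spread between plates for each gene, for example 0.59 for IL6ST and -0.19 for STAT3.

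**Figure D3:**
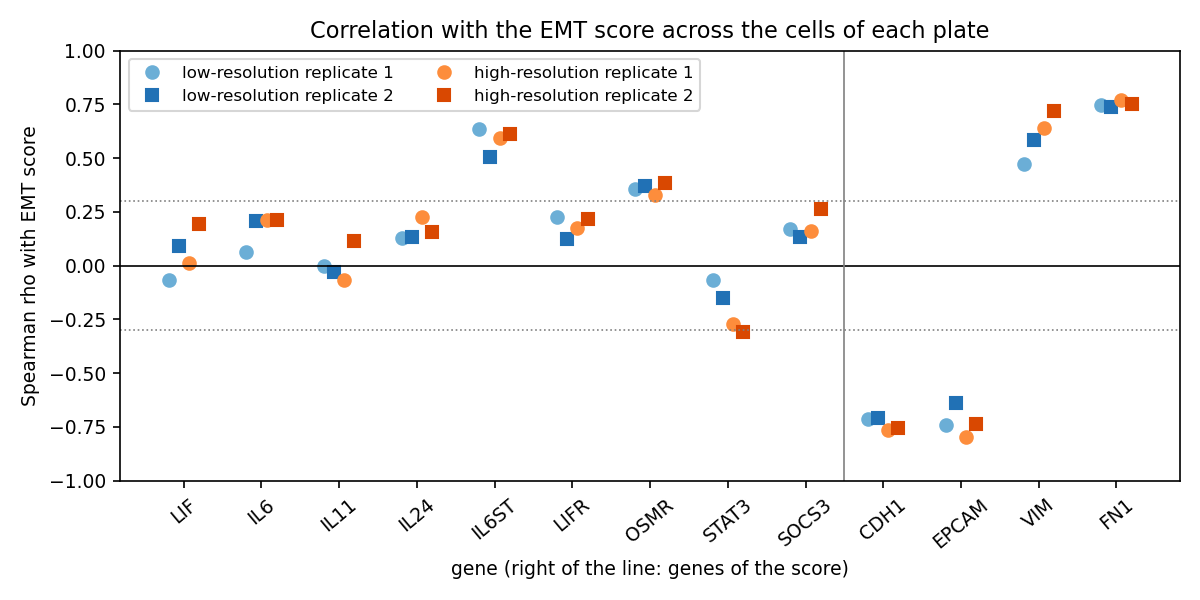
Spearman correlation with the EMT score (y axis, from -1 to 1) across the cells of each plate for the 9 genes and for 4 marker genes that are part of the score. Dotted lines mark 0.3 and -0.3. IL6ST and OSMR lie above 0.3 on all 4 plates, LIF scatters around 0, and STAT3 is below 0 on all 4.

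To set plates beside each other at a more similar EMT state, all 1146 cells were ranked on 1 joint EMT score. They were cut into EMT-low, EMT-middle and EMT-high cells, 382 of each. The low-resolution plates had 42.3% and 46.9% of their cells among the EMT-low and 28.5% and 23.2% among the EMT-high cells. The high-resolution plates had 23.0% and 22.2% among the EMT-low and 42.3% and 38.6% among the EMT-high cells. CDH1 went from between 1.01 and 1.23 transcripts per 10000 in EMT-low cells to between 0.0222 and 0.0710 in EMT-high cells, as a score built partly on it must give.

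LIF was higher on the high-resolution plates in all 3 sets of cells. In EMT-low cells, the most epithelial, its level was 0.315 and 0.293 transcripts per 10000 on the low-resolution plates against 1.40 and 0.910. In EMT-middle cells it was 0.180 and 0.177 against 0.846 and 0.757, and in EMT-high cells 0.168 and 0.373 against 1.04 and 1.41. The groups did not overlap in any of the 3, and the ratio of their means was 3.80, 4.49 and 4.52 from EMT-low to EMT-high. Fitted within each set alone, the log2 difference was 1.97, 2.21 and 2.21. The LIF difference was about as large within each set as over all cells (2.06). EMT state was not fully equal within a set. FN1 in EMT-low cells was 0.372 and 0.472 transcripts per 10000 on the low-resolution plates against 0.504 and 2.24. In EMT-middle cells FN1 was 3.03 and 2.68 against 3.97 and 3.83, while in EMT-high cells the groups overlapped. What this adds to the LIF difference was not tested.

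IL6ST showed the reverse arrangement. It rose along the score on each plate, from 0.682, 0.668, 0.572 and 0.673 transcripts per 10000 in EMT-low cells to 2.25, 2.04, 2.02 and 1.92 in EMT-high cells, or 2.85-fold to 3.53-fold. From EMT-low to EMT-high cells the high-resolution plates had means of 0.922, 0.836 and 0.916 times those of the low-resolution plates. Fitted within each set its log2 difference was -0.08, -0.21 and -0.12, against 0.14 over all cells.

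OSMR rose 2.23-fold to 2.73-fold from EMT-low to EMT-high cells on the 4 plates. The ratio of high-resolution to low-resolution means was 1.21, 1.33 and 1.08 from EMT-low to EMT-high cells, against 1.39 over all cells. LIFR was in 16 of 382 EMT-low cells, 26 EMT-middle cells and 64 EMT-high cells. In EMT-high cells, where most of its UMIs lay (78 over all plates), its level was 0.0896 and 0.0533 transcripts per 10000 on the low-resolution plates against 0.0444 and 0.0442.

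STAT3 fell along the score on each plate, to 0.892 and 0.780 of its EMT-low level on the low-resolution plates and to 0.575 and 0.497 on the high-resolution plates. The low-resolution plates were above the high-resolution plates in all 3 sets, with log2 differences of -0.33, -0.71 and -1.02 from EMT-low to EMT-high. Whether these differ from one another was not tested. SOCS3 rose along the score on each plate, 1.56-fold on low-resolution replicate 2 and 3.93-fold to 7.17-fold on the others.

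Cells with IL6 or IL24 were mostly EMT-high when the plates were pooled. Of 59 cells with an IL6 UMI, 2 were EMT-low, 17 EMT-middle and 40 EMT-high, and of 54 with IL24, 3, 18 and 33. Most of these cells came from the high-resolution plates, which also held more EMT-high cells. By plate, IL6 was in 2, 5, 18 and 15 EMT-high cells against 2, 0, 8 and 7 EMT-middle cells. IL24 was in 3, 2, 13 and 15 EMT-high cells against 2, 3, 2 and 11 EMT-middle cells. On the 2 high-resolution plates IL6 was in 14.6% and 13.3% of EMT-high cells. LIF, by comparison, was in 42.9%, 46.3% and 57.1% of EMT-low, EMT-middle and EMT-high cells, to which the plates contribute unequally.

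**Figure D4:**
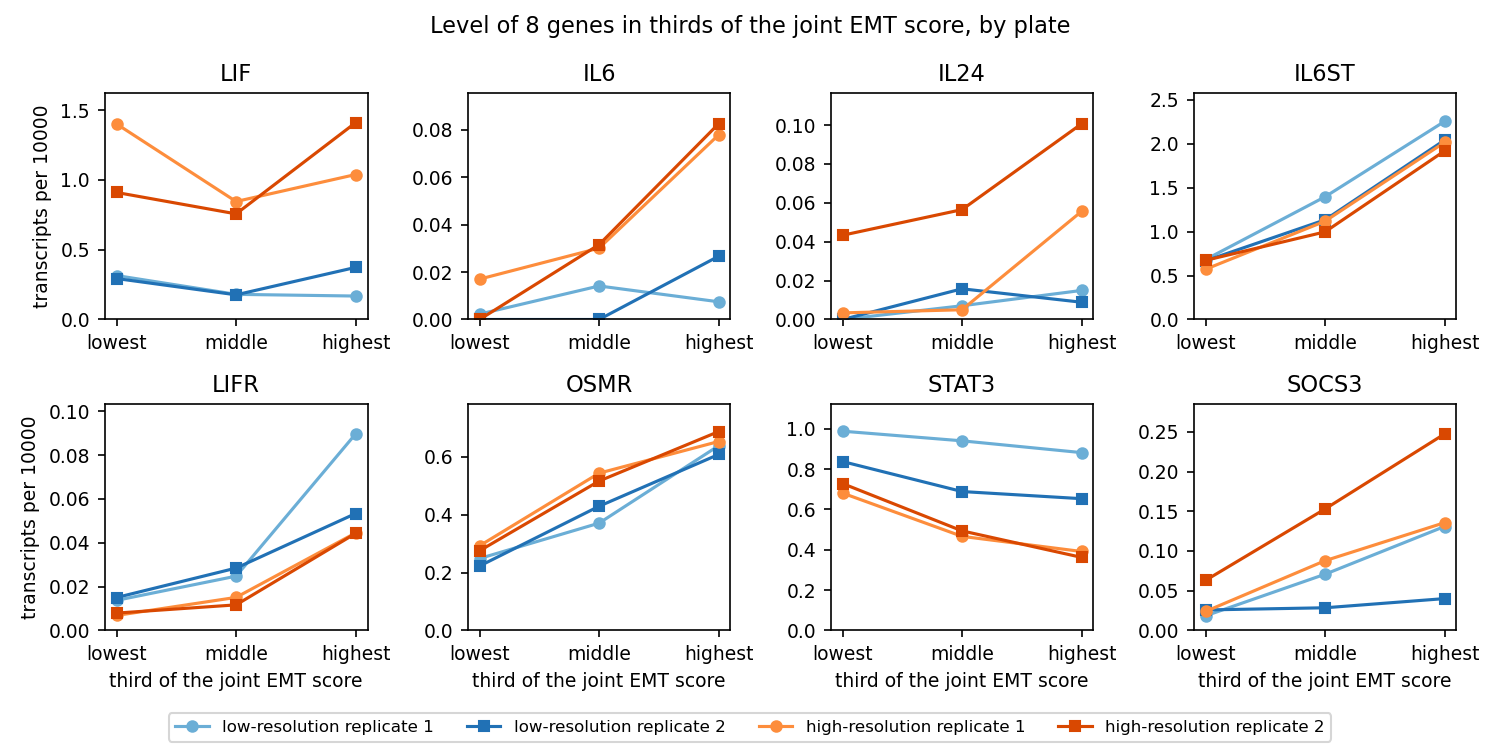
Level (y axis, transcripts per 10000, each panel with its own linear scale from 0) of 8 of the genes in the lowest, middle and highest 382 cells of the joint EMT score, 1 line per plate. The LIF lines of the high-resolution plates (0.757 to 1.41) stay above those of the low-resolution plates (0.168 to 0.373) throughout, whereas the IL6ST lines of all 4 plates rise together.

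Correlations between the 9 genes from cell to cell were low. Most cells had no UMI of the rare genes, which keeps rho low, so a low value does not show that genes vary apart. Over the 36 pairs the mean rho of 4 plates ran from -0.07 to 0.25, with 1 pair at 0.2 or more and 8 at 0.1 or more. That pair was IL6ST and OSMR, with 0.19, 0.28, 0.20 and 0.31, and in thinned cells the mean was 0.14. IL6ST also had 0.15 with SOCS3 and 0.15 with LIFR. All 3 of these receptor chains had positive rho with the EMT score on every plate.

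Correlations of LIF with the other 8 genes were low. Its 8 pairs had mean rho from -0.01 with STAT3 to 0.08 with IL6. Among the 8031 genes compared below, the highest mean rho of LIF was itself only 0.23, with AREG. On high-resolution replicate 2 its rho was higher for some pairs, with 0.19 for IL6ST and 0.13 for IL6. Both LIF and IL6 were found in 43 cells where the product of their shares gave 36.6, and both LIF and LIFR in 56 where it gave 50.7. These counts are at full depth, which differs between cells. In thinned cells the counts were 13 against 10.7 and 9 against 8.77.

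Few cells had both IL6 and IL24, and the product of their shares also gave few. They shared 6 cells where the product gave 3.77, in 1, 1, 3 and 1 cells by plate. In thinned cells they shared none where the product gave 0.473. Both IL6 and SOCS3 were found in 22 cells against 13.8, of which 21 were on the high-resolution plates (10 and 11). Counts this small order nothing.

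Cells with IL6 or IL24 were also read more deeply. They made up 9, 9, 40 and 49 cells, with median transcripts of 50886, 65025, 44072 and 50732 against 30274, 33405, 34943 and 39157 in the other cells of their plates. Their level of SOCS3 was 0 and 0.0598 transcripts per 10000 on the low-resolution and 0.191 and 0.197 on the high-resolution plates, against 0.0665, 0.0282, 0.0722 and 0.164 in the others, so low-resolution replicate 1 went the other way, and their median EMT score was higher on all 4 plates.

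**Figure D5:**
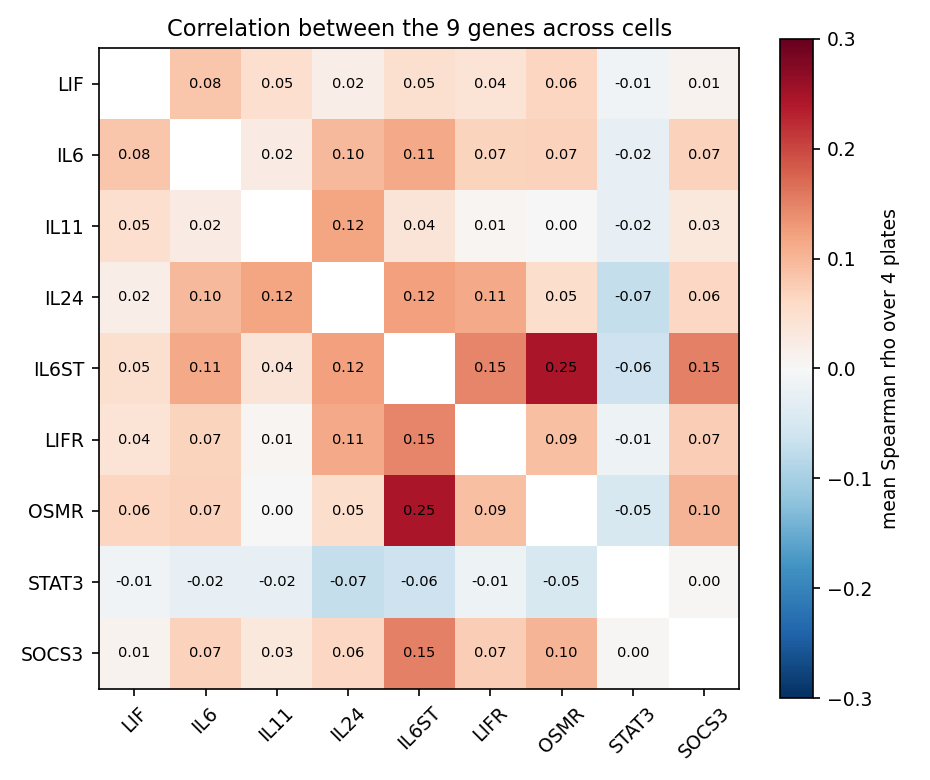
Mean Spearman correlation over the 4 plates between each pair of the 9 genes (both axes: genes, colour and printed value: mean rho from -0.3 to 0.3). The pair of IL6ST and OSMR reads 0.25, and the row of LIF stays between -0.01 and 0.08.

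The genes whose pattern over cells was most like each of the 9 were read from the 8031 other genes in at least 20% of the cells of every plate. For LIF they were AREG (mean rho 0.23), LAMB3 (0.22), HBEGF (0.21), TM4SF1 (0.21) and F3 (0.20), of which AREG and HBEGF encode growth factors for the EGF receptor. For IL6ST they were FN1 (0.58), TIMP1 (0.57), ITGB1 (0.52), HTRA1 (0.51) and EMP3 (0.51), and for OSMR TIMP1 (0.35), ANXA5 (0.33), EMP3 (0.33), ITGB1 (0.32) and HTRA1 (0.32). The lists of both receptor chains thus shared TIMP1, ITGB1, HTRA1 and EMP3. FN1 and EMP3 are themselves genes of the EMT score. For STAT3 they were SPTSSA (0.28), NCOA7 (0.26), ACSL1 (0.25), METTL7A (0.24) and CTSD (0.24). In thinned cells the mean rho was lower for every gene named here. For the first gene of each list it was 0.17 (LIF), 0.39 (IL6ST), 0.22 (OSMR) and 0.12 (STAT3). The other 5 genes were in too few cells for the rule.

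Among the ligands and receptor chains outside the 9, 1 gene passed the test. Of all genes tested, 6.26% were called higher and 6.18% lower, so nothing is read from that count. Of 13 other ligands 9 had a row and 3 could be fitted, and 0 passed the edgeR threshold (0 also at an unadjusted p under 0.05 and 0 with DESeq2). CLCF1, a gp130 ligand, was in 24.7% to 50.9% of cells, and OSM, the ligand of OSMR, had a row but not 1 UMI in the kept cells. Of 7 other receptor chains fitted, only IL20RB passed, lower on the high-resolution plates with a log2 difference of -0.45 ± 0.13 (SE, edgeR adjusted p = 0.0383), and it was not called with DESeq2 (adjusted p = 0.0754) or without any 1 plate other than low-resolution replicate 1 (edgeR adjusted p = 0.101 to 0.174). IL20RB is a chain of the receptors for IL24, and it was in 66.3% to 78.6% of cells, whereas its partners IL20RA and IL22RA1 were in at most 2.06% and 0.687%. IL6R, the chain IL6 needs on the cell, was in 20.3% to 38.9% of cells.

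None of the 13 kinases and transducers outside the 9 that could be fitted passed (4 at an unadjusted p under 0.05, 0 with DESeq2), and JAK1 was in 89.0% to 96.2% of cells at 0.908 to 1.17 transcripts per 10000. Of 15 negative regulators and sheddases fitted, SOCS2 rose by 1.08 ± 0.20 on the log2 scale (edgeR adjusted p = 0.00482). PIAS1 fell by 0.82 (SE 0.14, edgeR adjusted p = 0.00272). These counts stand beside 6.26% of all genes called higher and 6.18% called lower.

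Of the textbook STAT3 target genes some were higher and some lower. Of 22 fitted, 3 were higher and 2 lower, beside 6.26% and 6.18% of all genes, with a median log2 difference of -0.02 against -0.02 over all genes tested. The higher ones were JUNB (1.17 ± 0.14, adjusted p = 0.000387) and IER3 (1.04 ± 0.13, adjusted p = 0.000485), both immediate-early genes, and TIMP1 (0.43 ± 0.11, adjusted p = 0.0252), a protease inhibitor that followed the EMT score upward. The lower ones were LCN2 (-1.46 ± 0.16, adjusted p = 0.000268), an iron-binding acute-phase protein that followed the score downward, and CEBPD (-0.57 ± 0.13, adjusted p = 0.0173), a transcription factor. TIMP1 and CEBPD lost the call without low-resolution replicate 2 (edgeR adjusted p = 0.129 and 0.0855) or high-resolution replicate 1 (adjusted p = 0.0605 and 0.118). The counts were 8 higher and 4 lower with a replicate block, where 8.1% of all genes were called higher and 8.16% lower. They were the same with no filter on low counts, where 5.65% and 5.48% were called. Fitted in EMT-low, EMT-middle and EMT-high cells alone, TIMP1 had log2 differences of 0.22, -0.05 and 0.03, LCN2 of -0.70, -1.06 and -1.02 and CEBPD of -0.17, -0.52 and -0.84. JUNB had 0.91, 0.86 and 1.17, and IER3 was also positive in all 3. In EMT-low cells none of these 5 passed, in EMT-middle cells TIMP1 and CEBPD did not, and in EMT-high cells TIMP1 and LCN2 did not.

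The list of AP-1 and NF-kB genes held secreted factors together with AP-1 subunits and NF-kB inhibitors. Of 17 fitted, 10 were higher on the high-resolution plates and 0 lower, beside 6.26% of all genes called higher, and the median log2 difference was 0.72 against -0.02 over all genes. The 5 with the smallest adjusted p were CXCL8, the neutrophil chemokine interleukin-8 (1.87 ± 0.20, adjusted p = 0.000236), AREG (1.50 ± 0.17, adjusted p = 0.000244), FOSL1, an AP-1 subunit (1.28 ± 0.15, adjusted p = 0.000292), IL1A, an alarm cytokine (1.40 ± 0.19, adjusted p = 0.000863), and PTGS2, the inducible cyclooxygenase (1.43 ± 0.23, adjusted p = 0.00242). The 7 that did not pass were CXCL1, CXCL2, CXCL3, IL1B, NFKBIA, FOSB and ATF3, with log2 differences from -0.27 (CXCL3) to 0.77 (CXCL1). With DESeq2 7 of the 17 passed as higher, beside 4.48% of all genes. Fitted in 1 set of cells at a time, the counts higher were 2 of 16 in EMT-low, 8 of 17 in EMT-middle and 3 of 17 in EMT-high cells. The shares of all genes called higher were 0.121%, 2.23% and 1.14% in the same order. In either direction 18, 559 and 272 of all genes passed. The medians of the list were 1.04, 0.76 and 0.52. Of the 5 genes named first, AREG and FOSL1 passed in each set, CXCL8 only in EMT-high cells, IL1A only in EMT-middle cells and PTGS2 in none. From EMT-low to EMT-high cells CXCL8 had log2 differences of 1.22, 0.61 and 1.55. IL1A had 1.13, 1.98 and 0.65, and PTGS2 had 0.96, 0.97 and 1.82. This list and the others were drawn up with earlier results of these plates known.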

How the data were processed

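Single MCF10A cells from 4 SORT-seq plates (a CEL-seq2 variant with 3′ UMIs) were analysed. The authors aligned reads with STAR 2.7.3a to hg38 and used Seurat 4, per the submitters' processing notes. The sources used here name neither the counter nor its strand setting. The deposited tables hold expected counts: the UMI count of each gene and well, corrected by the authors for UMIs of the same sequence among 4096. The correction could be undone to whole UMIs for all 7245730 values above 0, and depth is therefore known. Spike-ins were left out.

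Wells were kept at 2000 to 9000 features and under 40% mitochondrial transcripts (1146 of 1536; no doublet caller was run, since cells were sorted singly). Plate totals were 11709628 to 14992348 transcripts, which sets the counting error of rare genes. Levels are summed counts per 10000 transcripts. Rounded sums per plate were tested with edgeR 4.0.16 in R 4.3.3 (quasi-likelihood, TMM, filterByExpr, Benjamini-Hochberg adjusted p under 0.05, 2 plates against 2). DESeq2 1.42.0 was an alternative. A standard error is the log2 difference over the root of F. P-values measure the spread between these plates. EMT scores were computed by gene set variation analysis (Gaussian kernel, 1 fit per experiment), with Python 3.11.15, numpy 2.4.6 and scipy 1.17.1; cell cycle genes came from Seurat 5.3.0. EMT-low, EMT-middle and EMT-high cells were cut on a joint score, the mean z-score of M genes minus that of E genes. The scripts were tested on simulated data. Thinning left out 16 cells under 10000 UMIs.

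The 9 genes and all gene lists were chosen with earlier results of these data known. Named were the 9 genes, up to 5 called genes per pathway list by smallest adjusted p, CDH1, EPCAM, VIM and FN1, and the 5 genes most alike in pattern. Genes named beyond this rule (OSM, CLCF1, IL6R, IL20RA, IL22RA1, JAK1, CXCL1, CXCL2, CXCL3, IL1B, NFKBIA, FOSB, ATF3, RICTOR, LIFR-AS1 and the cell type markers) were chosen after their values were seen. No other column of per-sample values was used; barcode lists were not used. Protein sequences were not used here.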

Additional observations from a re-analysis of the deposited data

Results flagged for a closer look

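Wells under 2000 features entered no comparison, and 4 of the 9 genes had UMIs there in more wells than a count of 0 would allow. Of 222 such wells, 11.7% had a LIF UMI, 14.4% an IL6ST UMI, 9.91% an OSMR UMI and 15.3% a STAT3 UMI, where a count of 0 allows up to 1.35%. LIF was in 7 of 114 low-resolution wells (6.14%) and in 19 of 108 high-resolution wells (17.6%), the same order as in the kept cells, although these wells were shallower in the high-resolution group (median 2108 transcripts against 4003). IL6, IL11, IL24 and LIFR had no UMI in any of the 222 wells, and SOCS3 had 1 in each group. What these wells held was not tested.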

How the results depend on the processing

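The number of genes called between high-resolution and low-resolution plates was 1547 and ran from 982 (without low-resolution replicate 1) to 1172 when 1 plate was left out, with 987 without high-resolution replicate 2. It was 18, 272 and 559 in EMT-low, EMT-high and EMT-middle cells alone (the last was chosen after seeing the data), where fewer cells and genes entered. The 377 genes that followed the EMT score became 160 in thinned cells, 787 at a limit of 0.2, 181 at a limit of 0.4, and 395 to 434 when 1 plate was left out. Of 104 alternative values of the log2 differences of the 8 fitted genes, 101 kept their direction, and the other 3 were those of IL6ST in EMT-low (-0.083), EMT-high (-0.12) and EMT-middle (-0.21) cells, none past the threshold; the cause was not tested. LIF ran from 1.93 to 2.22. OSMR ran from 0.12 in EMT-high cells to 0.58, and 11 of the 104 values lost the call, among them OSMR in EMT-low, EMT-middle and EMT-high cells. Same-numbered plates did not deviate together (correlation -0.0216 over 10722 genes), so the numbers pair nothing, and a fit with the replicate number as a block called 2023 genes and gave LIF 2.07. Depth limits IL6, IL11, IL24 and LIFR, with at most 95 UMIs a plate. Mean rho with the EMT score kept its sign for 8 of the 9 genes under every alternative, that of IL11 turned to -0.04 in thinned cells and -0.03 without high-resolution replicate 2, and it was closer to 0 in thinned cells for the 8, STAT3 included. For IL6, IL24 and LIFR DESeq2 gave no adjusted p.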
